A study of Mus musculus with 12 samples.

Results

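The 33 genes described here belong to the unfolded protein response and to the ATF4-driven amino acid response, and were measured in cultured mouse dendritic cells. They were chosen by name, with earlier results of these data known, and each was read from the annotated probe set with the highest mean signal over the arrays. All 33 genes were on the array and all 33 passed the filter on low values, out of 18193 genes on the array and 12442 genes tested. The members comprise 11 chaperones and co-chaperones of the endoplasmic reticulum (ER), 3 disulfide isomerases, 2 genes of ER-associated degradation, 4 sensors or their direct factor, 5 factors of the ATF4 arm, 3 effectors of that arm and 5 amino acid genes.

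Bone marrow cells of mice aged 6 to 8 weeks were grown in GM-CSF (20 ng/ml, 10 days), which drives marrow precursors towards dendritic cells. All-trans retinoic acid (RA, 10 nmol, labelled as a dose per ml) or Ro41-5253 (Ro, 100 nmol), an antagonist of the retinoic acid receptor alpha, was present throughout, or no retinoid was added, and each of these was run with or without LPS (1 ug/ml), a bacterial ligand of the receptor TLR4. Each of the 6 conditions was measured once in BALB/c and once in BL6 cells, on 12 single-colour Affymetrix arrays. The time of LPS exposure is not given apart from that of the other agents, and no sort of the cultured cells is named in the labels. Nothing says whether the cultures of a strain came from separate mice. The p-values rest on how far single arrays lay from the fitted model. That spread mixes differences of response between the strains with culture and array spread, which may be technical. It cannot be read as spread between mice.

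The unfolded protein response starts at 3 membrane sensors of the ER, IRE1alpha (Ern1), PERK (Eif2ak3) and ATF6. IRE1alpha splices Xbp1 mRNA, and XBP1 and ATF6 switch on chaperones and degradation genes. PERK phosphorylates eIF2alpha, as does GCN2 when amino acids are short, which slows translation in general while that of ATF4 increases; ATF4 then drives CHOP (Ddit3), TRIB3, amino acid transporters and biosynthetic enzymes. In dendritic cells, XBP1 is known to be needed for normal development and survival, and TLR signalling is known to act on ATF4 and CHOP.

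Changes below are log2 differences of signal + 16, given relative to the median change of all tested genes in the same comparison, with the standard error of the limma model; folds come from the same relative changes, and the added 16 understates changes of dim genes. A gene "rose" or "fell" if its Benjamini-Hochberg adjusted p over all 12442 genes was under 0.05 with the same sign both at the deposited scaling and after quantile normalization, and the printed adjusted p is the larger of the 2. This rule was used because array medians ranged from 21.3 to 41.7 and the median gene fell by 0.41 with LPS at the deposited scaling. Each p tests the change before the change of the median gene is taken off. It is therefore not a test of the relative change printed beside it, and the 2 can seem at odds. No fold is given where a group's mean signal was below 41.7.

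Of the 12 dendritic cell markers on the array, Itgax, Cd74, H2-Ab1, H2-Aa, Ciita and Dpp4 lay above background on 12 of 12 arrays and Zbtb46 on 11, whereas Flt3, Cd209a and Itgae did so on 6 arrays each and Xcr1 and Siglech on 2 each. The macrophage and monocyte markers Csf1r, Adgre1, C1qa, C1qb, Fcgr1, Cd14, Cd68 and Mertk also lay above background on 12 of 12 arrays. Mrc1 and Trem2 did so on 11 arrays each and Ccr2 on 7. Several marker lists moved with the conditions. The summed granulocyte signal was 12314 to 62762 without LPS and 3953 to 16271 with it, and the summed macrophage and monocyte signal was 41528 to 65338 without and 12411 to 52052 with LPS, against 33810 to 51533 and 29505 to 41005 for the dendritic cell list. Counted by gene, LPS lowered 9 of 12 tested granulocyte, 6 of 11 macrophage, 5 of 12 dendritic cell, 3 of 7 eosinophil and mast cell and 2 of 6 B and plasma cell markers, and raised 2, 1, 0, 0 and 0 of them, against 28.9% of all tested genes lower and 11% higher, so that the B and plasma cell count is near the background; the only erythroid marker tested passed in neither direction. Macrophage signal was also lowest with Ro, at 12411 to 42987, against 39578 to 53696 without retinoid and 45636 to 65338 with RA, and 6 of its 11 markers fell with Ro. None of the 5 T and NK cell markers on the array passed the filter. In these bulk samples fewer cells of a type and less RNA per cell cannot be told apart, and the part of these shifts in the results below was not tested.

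To show which members carry the known response elements, RefSeq promoter windows (GRCm38.p6, 250 bases before to 50 after the annotated start) were read for 30 of 33 members; Manf, Hyou1 and Atf6 were not analysed in this way. The windows were searched on both strands for the ER stress element ERSE (CCAAT and CCACG with 9 bases of any kind between them, bound by ATF6 with NF-Y), ERSE-II (ATTGG, 1 base of any kind, then CCACG), the CARE element of ATF4 (TGATGNAA), the UPRE core (TGACGTGG) and the CRE (TGACGTCA). ERSE stood in 7 members (Hspa5, Hsp90b1, Calr, Canx, Dnajc3, Creld2 and Pdia6), against 0.119% of all 32851 windows, and ERSE-II in 2 (Dnajb11 and Herpud1), against 0.0365%. CARE, a short and common word held by 3.97% of all windows, stood in 6 members: Herpud1, Atf3, Trib3, Chac1, Asns and Slc7a11. None of the members' windows held the UPRE or CRE letters, which 0.676% and 1.79% of all windows do. Counted by gene, ERSE, ERSE-II and CARE were held by 0.137%, 0.0444% and 4.51% of all genes with a window. The members were chosen as known genes of these responses, so these counts do not test for an excess. A match is a description of these letters and does not show a binding site.

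Whole windows are given for 4 members: the chaperone Hspa5 with an ERSE, Herpud1 with both kinds of element, and Chac1 and Slc7a11 with CARE. They lie at chr2:34771840-34772139 (plus strand), chr8:94386179-94386478 (plus strand), chr2:119350992-119351291 (plus strand) and chr3:50443564-50443863 (minus strand), and are written 5′ to 3′ along the gene, with the matched letters in capitals.
Hspa5: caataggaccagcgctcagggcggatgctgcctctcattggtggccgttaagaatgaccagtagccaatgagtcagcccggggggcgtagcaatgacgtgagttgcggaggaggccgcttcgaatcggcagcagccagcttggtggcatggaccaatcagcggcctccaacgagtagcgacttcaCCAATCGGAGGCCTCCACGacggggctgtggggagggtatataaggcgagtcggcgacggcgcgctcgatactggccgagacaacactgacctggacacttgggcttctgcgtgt
Herpud1: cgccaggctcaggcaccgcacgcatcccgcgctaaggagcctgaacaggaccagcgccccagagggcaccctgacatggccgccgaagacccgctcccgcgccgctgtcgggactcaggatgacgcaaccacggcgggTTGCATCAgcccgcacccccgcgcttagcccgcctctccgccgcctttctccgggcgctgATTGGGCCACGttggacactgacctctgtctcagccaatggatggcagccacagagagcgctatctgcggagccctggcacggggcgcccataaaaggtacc
Chac1: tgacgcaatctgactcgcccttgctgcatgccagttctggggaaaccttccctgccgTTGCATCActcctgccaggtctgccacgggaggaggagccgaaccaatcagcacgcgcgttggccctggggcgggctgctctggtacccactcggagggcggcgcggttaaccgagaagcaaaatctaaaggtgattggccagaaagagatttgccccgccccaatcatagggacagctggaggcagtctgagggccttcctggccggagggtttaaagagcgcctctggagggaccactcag
Slc7a11: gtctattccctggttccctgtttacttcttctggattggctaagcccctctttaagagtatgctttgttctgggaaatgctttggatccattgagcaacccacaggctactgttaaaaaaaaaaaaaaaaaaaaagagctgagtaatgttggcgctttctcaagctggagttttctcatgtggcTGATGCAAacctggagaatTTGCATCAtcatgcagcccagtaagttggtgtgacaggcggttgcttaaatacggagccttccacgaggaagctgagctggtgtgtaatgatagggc

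In Hspa5 the ERSE began 65 bases before the start. In Herpud1 the CARE began 112 bases and the ERSE-II 52 bases before it. Slc7a11 held CARE letters at 66 and 47 bases before the start, on opposite strands, and Chac1 at 193 bases.

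**Figure D1:**
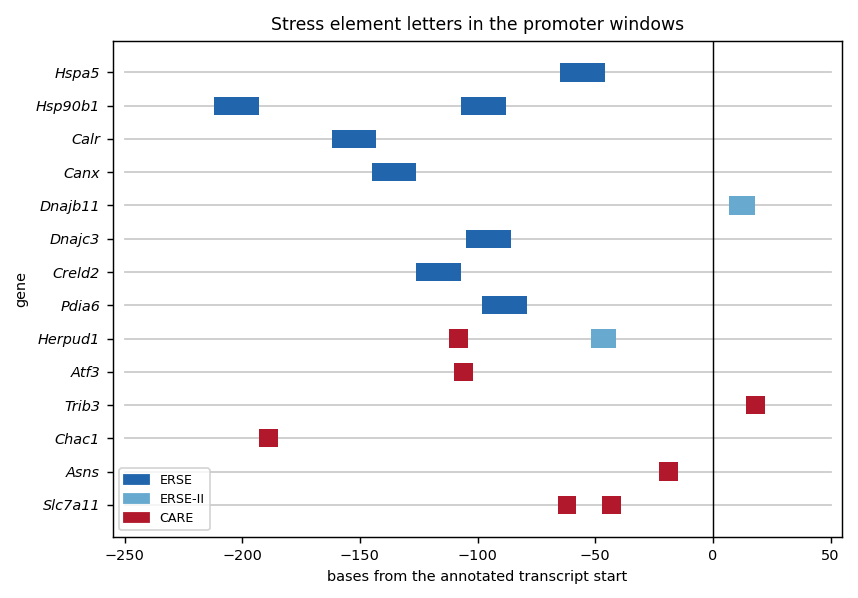
Positions of the ERSE, ERSE-II and CARE letters in the promoter windows of the 14 members that hold any of them; the x axis is bases from the annotated transcript start (vertical line at 0) and bars cover the matched letters. ERSE stands in chaperone and isomerase genes. CARE stands in the ATF4 arm genes Atf3, Trib3 and Chac1, the amino acid genes Asns and Slc7a11, and Herpud1, which also holds an ERSE-II.

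With LPS the genes grouped here as ATF4 arm factors rose, whereas no ER chaperone gene passed the averaged test as higher. Averaged over retinoids (6 arrays with LPS against 6 without), 9 of 33 members rose (27.3%, against 11% of all tested genes) and 9 fell (27.3%, against 28.9%). The share that rose was above the background and the share that fell was close to it. All 5 of the 5 ATF4 arm factors rose, as did Ddit4, Asns, Slc7a11 and Ern1, and of the 11 chaperones 0 rose and 2 fell. The rule is uneven here, since the median gene fell by 0.41 at the deposited scaling, which makes a rise harder to call. Quantile normalization alone gave 12 members higher and 9 lower, and the deposited scaling alone gave 9 and 12. Relative to the median gene, the chaperones had a median change of 0.20 (-1.18 to 0.77).

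**Figure D2:**
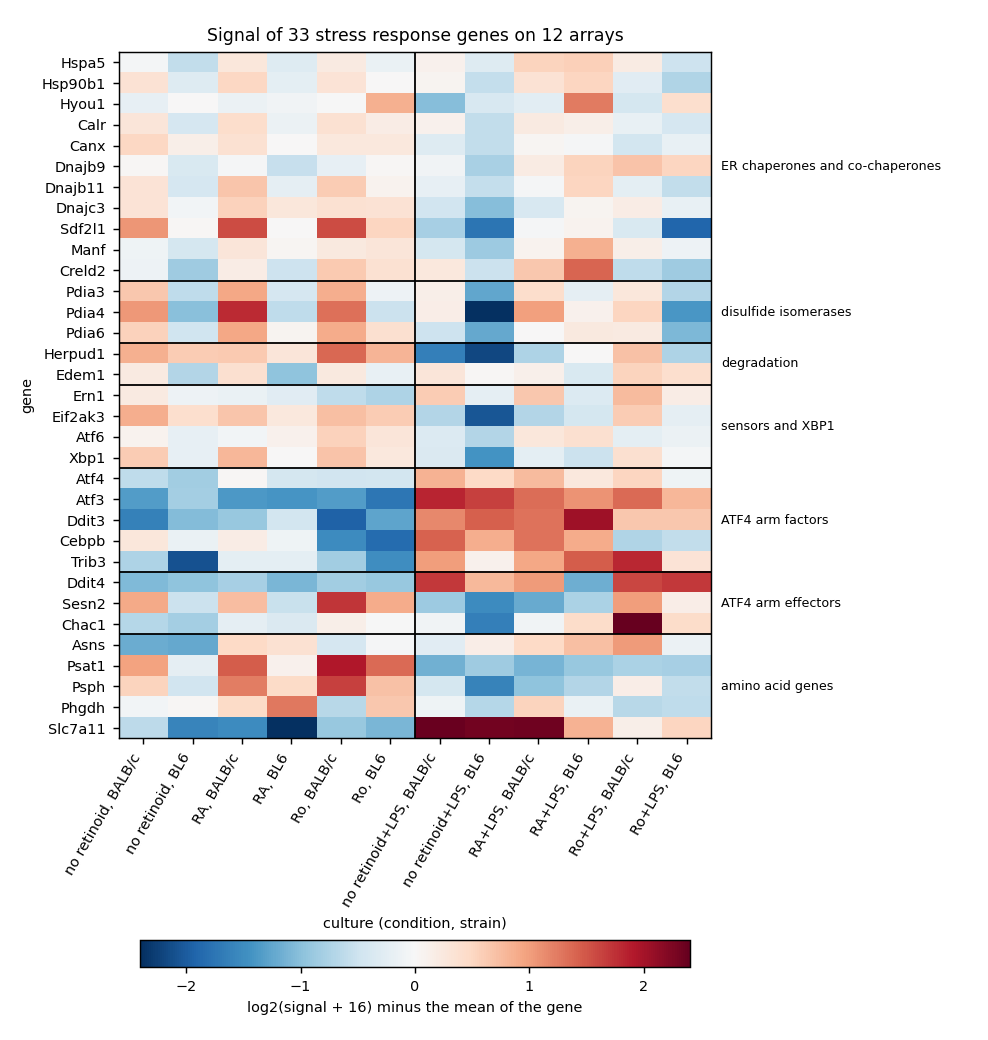
Colour shows log2(signal + 16) of each of the 33 genes (rows, grouped by role) on each of the 12 arrays (columns), minus the mean of that gene; colours saturate at 2.4 in each direction, and the vertical line separates arrays without and with LPS. The ATF4 arm factors and Slc7a11 are high with LPS, and Psat1, Psph and Sdf2l1 are low.

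Among the ATF4 arm factors, Ddit3, which encodes the transcription factor CHOP, had a lowest, median and highest signal of 263, 467 and 778 without LPS and of 1652, 2494 and 4383 with LPS. Every LPS array lay above every array without LPS, and Ddit3 rose by 2.82 ± 0.13 (7.05-fold; adjusted p 4.09e-07). Atf3, an LPS-inducible repressor of inflammatory genes and a target of ATF4, went from 697, 909.5 and 1342 to 4093, 6008 and 8465. Its groups did not overlap either, and it rose by 3.09 ± 0.14 (8.49-fold; adjusted p 5.98e-07). Trib3, a pseudokinase induced by ATF4 and CHOP, was dim, at 12, 53.0 and 85.2 without and 111, 217 and 403 with LPS, and rose by 2.29 ± 0.26 (adjusted p 7.58e-05), again with no overlap. With Slc7a11, these were the 4 members (12.1%) whose LPS arrays all lay above the rest, which 2.99% of all tested genes did.

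Atf4 itself had signals of 2405, 3138 and 4360.1 (lowest, median and highest) without LPS and 4004, 6077 and 7645 with it. It rose by 1.32 ± 0.14 (2.50-fold; adjusted p 0.00014), although the RA array of BALB/c without LPS (4360.1) lay above the Ro+LPS array of BL6 (4004). Cebpb, a partner of ATF4 and a factor of myeloid activation, rose by 1.47 ± 0.10 (2.77-fold; adjusted p 5.77e-06). Its groups, 934 to 4109 without and 2069 to 9148 with LPS, overlapped: both Ro+LPS arrays (2069 and 2262) lay below both arrays with neither agent (4109 and 3062). These 5 rises passed the test under each of the alternative settings tried.

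Of the effectors of the ATF4 arm, Ddit4 rose and Sesn2 fell; both encode inhibitors of mTORC1. Ddit4 (REDD1) had signals of 185, 210.3 and 233 without LPS and 175, 1076 and 1388 with it, a rise of 2.29 ± 0.33 (4.90-fold; adjusted p 0.00044). The RA+LPS array of BL6, at 175, did not share the rise, while the other 5 LPS arrays lay above all arrays without LPS. Sesn2, a stress-induced leucine sensor, ran from 223 to 1109 without LPS and from 105 to 673 with it. The groups overlapped, and its fall by 0.65 ± 0.22 (adjusted p 0.026) was lost in 8 of 25 alternatives, 5 of which left out 1 array (the BALB/c array with neither agent, with RA, with LPS or with RA+LPS, or the BL6 Ro+LPS array; largest adjusted p over all alternatives 0.48). Chac1, which degrades glutathione, was at 33.1 to 79.2 without LPS and 11.6 to 632 with LPS and had a change of 1.06 ± 0.38 that did not pass the test (adjusted p 0.16).

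Of the 5 amino acid genes 2 rose with LPS, 2 fell and Phgdh did not pass the test. Slc7a11, the light chain of the cystine/glutamate exchanger that supplies cystine for glutathione, had signals of 39.2, 138 and 226 without LPS and 397, 1249 and 1925 with LPS. The groups did not overlap, and its rise of 3.25 ± 0.38 (9.50-fold; adjusted p 5.95e-05) was the largest of the 33 in the averaged comparison. Asparagine synthetase, Asns, was at 195, 414 and 671 without and 395, 603 and 988 with LPS and rose by 1.07 ± 0.22 (2.11-fold; adjusted p 0.022). The lowest values were the arrays with neither agent (201 and 195); the rise did not pass the test without either of these arrays, without the Ro or the Ro+LPS array of BALB/c or without the BL6 array with LPS alone (largest adjusted p over all alternatives 0.24).

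Psat1 and Psph, of the serine synthesis pathway, fell. Psat1, the transaminase of serine synthesis, fell from 239.6, 651 and 1102 to 118, 145 and 159.6, with every LPS array below every other array, as for 19.2% of all tested genes. The fall was 1.45 ± 0.25 on the log2 scale (adjusted p 0.00076). Psph, the phosphatase of the last step, fell by 0.96 ± 0.19 (adjusted p 0.0027) from 187, 412 and 849.8 to 75.6, 161 and 296. Phgdh, which catalyses the first step and was read from a probe set marked as able to cross-hybridise, was 192 to 772 without and 188 to 464 with LPS and did not pass the test (-0.15 ± 0.24; adjusted p 0.92).

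Among the sensors, Ern1 had signals of 318, 462 and 628 without LPS and 428, 721 and 926 with it. The groups overlapped, and its rise of 0.97 ± 0.19 (1.96-fold; adjusted p 0.024) was lost when any 1 of 6 arrays was left out: both Ro arrays, both Ro+LPS arrays, or the RA or RA+LPS array of BALB/c (largest adjusted p over all alternatives 0.54). Xbp1 fell by 0.31 ± 0.14 (adjusted p 0.0020), from 6096, 9426 and 12061 to 2570.0, 5694 and 9138; splicing of Xbp1 was not analysed here. Eif2ak3, at 312 to 489 without and 50.5 to 406 with LPS, did not pass the test in the averaged comparison (-0.76 ± 0.27; adjusted p 0.056), nor did Atf6 (0.16 ± 0.18; adjusted p 0.25).

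Of the 11 chaperones, 9 did not pass the averaged test, which does not show that they did not change. Hspa5, the main ER Hsp70 (BiP), had signals of 4715, 6637 and 8567 without LPS and 4996, 7894 and 10609 with LPS, and its change of 0.61 ± 0.13 did not pass the test (adjusted p 0.22). Sdf2l1, a component of ER chaperone complexes, fell by 1.18 ± 0.25 (adjusted p 0.0010), from 1251, 2194 and 3693 to 320.2, 829 and 1315. The lectin chaperone gene Canx and the isomerase gene Pdia3 also passed the test as lower, but they lay at the median gene at the deposited scaling (-0.09 ± 0.13 and -0.03 ± 0.12); after quantile normalization their changes relative to the median gene were -0.41 and -0.35, and scaling by the trimmed mean alone ended both calls, as it did that of the isomerase gene Pdia6 (-0.37 ± 0.19). Herpud1, a scaffold of the ER degradation complex whose window holds both an ERSE-II and a CARE, fell by 1.11 ± 0.31 (1307, 1770.0 and 2776 to 222, 632 and 1747; adjusted p 0.0062).

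The remaining 8 chaperones (Hsp90b1, Hyou1, Calr, Dnajb9, Dnajb11, Dnajc3, Manf and Creld2), the isomerase gene Pdia4 and the degradation gene Edem1 did not pass the averaged test, with changes from -0.27 (Pdia4) to 0.77 (Dnajb9). Hsp90b1, the ER Hsp90 (GRP94), was 2833 to 4977 without and 2132 to 5048 with LPS, and the lectin chaperone gene Calr was 4128 to 7297 and 3592 to 6304. Dnajb9 was 683 to 1038 and 586 to 1634, with the highest values in the Ro+LPS cultures (1634 and 1465) and the BL6 RA+LPS culture (1483). Edem1, which helps to route misfolded glycoproteins to degradation, was 919 to 2385 and 1414 to 2621 (0.75 ± 0.16; adjusted p 0.084). In all of these the groups overlapped.

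Read by promoter letters, the 7 ERSE genes had changes with LPS of -0.37 to 0.61, of which 0 rose and 2 fell. Those 2, Canx and Pdia6, lost the call with trimmed mean scaling alone. The 6 CARE genes ranged from -1.11 (Herpud1) to 3.25 (Slc7a11), of which 4 rose and 1 fell. The 16 members with a window but without these letters included 5 that rose, such as Ddit3 and Atf4, and 6 that fell. Of all tested genes 11% rose and 28.9% fell. No group was tested against these shares or against another group.

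**Figure D3:**
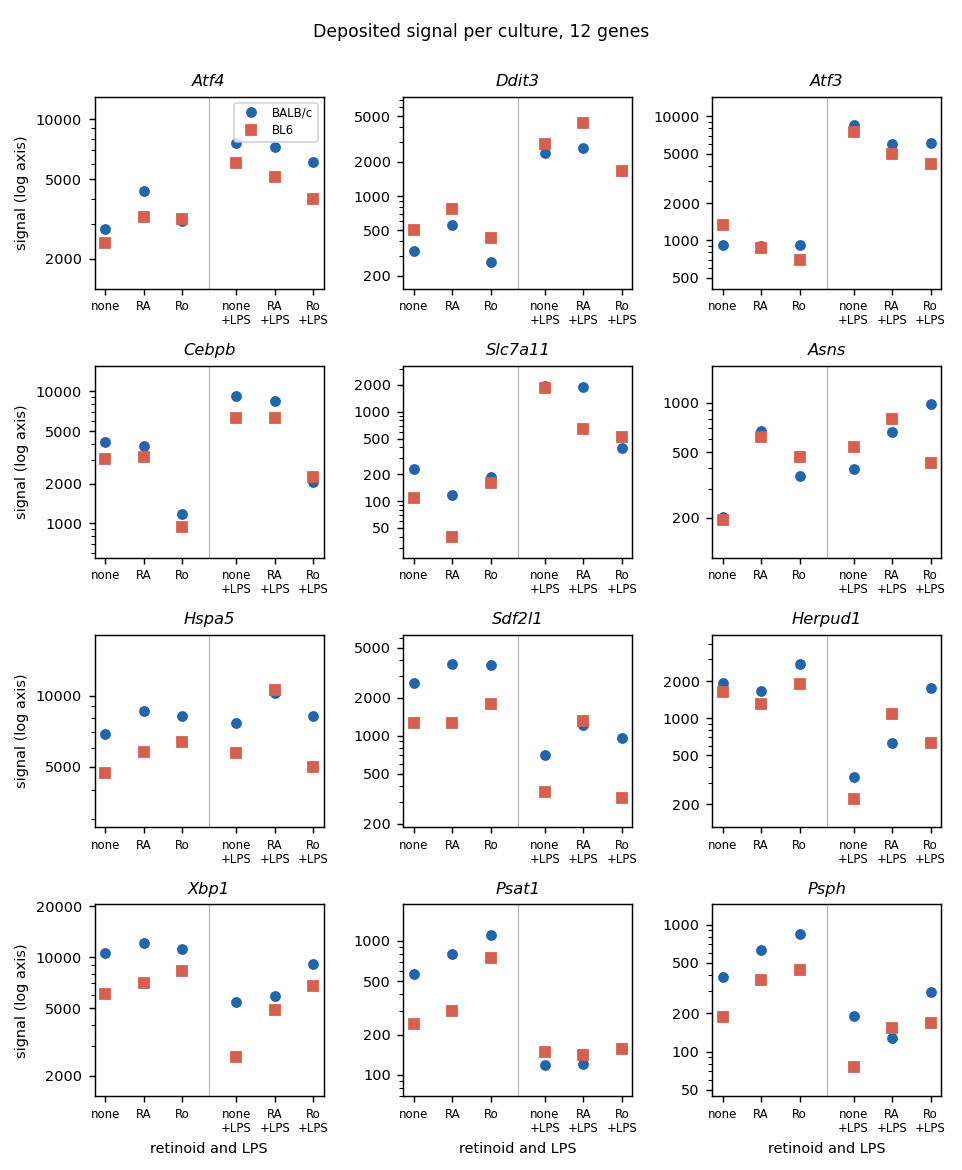
Deposited signal (log y axis) of 12 of the genes in each culture, by retinoid and LPS (x axis); circles are BALB/c and squares BL6, 1 array each. Ddit3, Atf3 and Slc7a11 are higher on every LPS array, Psat1 is lower on every LPS array, and Cebpb is lower in the Ro cultures of both LPS states.

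For LPS, other probe sets of the same genes mostly had the sign of the one reported: 22 members had further usable probe sets, 36 in all, of which 31 had the same sign as the one reported. Of the 19 that belong to members that passed the test, 13 passed in the same direction and 0 in the opposite one. Others went against the lack of a call for their gene. All 4 other probe sets of Dnajc3 passed as lower, with changes of -0.82, -1.49, -1.35 and -0.40, and of the 2 others of Atf6 1 passed as lower (-1.15) and 1 as higher (0.96).

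Within each retinoid condition (2 LPS arrays against 2), all 5 ATF4 arm factors rose without retinoid, with RA and with Ro, although leaving out 1 array of the condition ended some of these calls (for Atf4 the RA, RA+LPS, Ro or Ro+LPS array of BALB/c or the RA array of BL6, and for Trib3 the RA or Ro+LPS array of BALB/c or the RA+LPS array of BL6). Without retinoid, 8 members rose (24.2%, against 7.95% of all tested genes) and 6 fell (18.2%, against 21.8%). In RA cultures 8 rose (24.2%, against 6.52%) and 3 fell (9.09%, against 16.9%), and in Ro cultures 8 rose (24.2%, against 5.98%) and 9 fell (27.3%, against 15.3%). The 9 that fell in Ro cultures were 5 chaperones (Calr, Canx, Creld2, Hsp90b1 and Sdf2l1), 2 isomerases (Pdia3 and Pdia6), Psat1 and Psph. Calr, Canx, Hsp90b1, Pdia3 and Pdia6 lost this call with trimmed mean scaling alone. The share of all tested genes that fell under that scaling is not given here. Atf4 went from 2812 and 2405 (BALB/c and BL6) to 7645 and 6024 without retinoid, from 4360.1 and 3217 to 7274 and 5117 with RA and from 3099.7 and 3177 to 6131 and 4004 with Ro, changes of 1.90 ± 0.18, 1.10 ± 0.18 and 1.00 ± 0.18. Ddit4 rose without retinoid (2.77 ± 0.48; adjusted p 0.0035) and with Ro (2.87 ± 0.48; adjusted p 0.0030), and did not pass the test in RA cultures, with signals without and with LPS of 233 and 864 in BALB/c but 185 and 175 in BL6 (1.27 ± 0.48; adjusted p 0.18). Leaving out 1 array moved these totals of members called from 14 to between 11 and 17 without retinoid, from 11 to between 4 and 11 in RA cultures (4 without the BALB/c and 7 without the BL6 RA array) and from 17 to between 7 and 19 in Ro cultures (7 without the BALB/c Ro array, 9 without the BL6 Ro array and 9 without the BALB/c Ro+LPS array). Without strain as a block, 5 members were called in RA cultures and 7 in Ro cultures.

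Herpud1 and the PERK gene Eif2ak3 fell with LPS in the cultures without retinoid. Herpud1 had signals of 1931 and 1634 (BALB/c and BL6) without and 332 and 222 with LPS, and fell by 2.11 ± 0.38 (adjusted p 0.0025). In the other cultures it went from 1649 and 1307 to 630.1 and 1071 with RA (-0.42 ± 0.38; adjusted p 0.37) and from 2776 and 1891 to 1747 and 634 with Ro (-0.76 ± 0.38; adjusted p 0.12). Eif2ak3 went from 489 and 349 to 154 and 50.5 without retinoid and fell by 1.49 ± 0.35 (adjusted p 0.011). In RA and Ro cultures its changes of -0.62 ± 0.35 and -0.12 ± 0.35 did not pass the test. The fall without retinoid was lost when either BL6 array of that comparison was left out (largest adjusted p over all alternatives 0.1), and that of Herpud1 was lost in 0 of 23 alternatives.

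The ER genes Hspa5 and Creld2 rose with LPS in RA cultures, and Creld2 fell with LPS in Ro cultures. In RA cultures Hspa5 went from 8567 and 5749 to 10238 and 10609 with LPS and rose by 0.97 ± 0.17 (adjusted p 0.027). Creld2, an ER-stress-inducible gene with an ERSE in its window, went from 1171 and 728 to 1644 and 2754 and rose by 1.59 ± 0.33 (adjusted p 0.018). In Ro cultures Creld2 instead fell by 0.88 ± 0.33 (adjusted p 0.024), from 1602 and 1337 to 672 and 564. Without retinoid it was 954 and 569.6 without and 1239.9 and 723 with LPS, which did not pass the test (0.88 ± 0.33; adjusted p 0.41). Each of these calls was lost when 1 of the arrays of its own condition was left out: the BALB/c or BL6 RA array or the BL6 RA+LPS array for Hspa5 and Creld2 in RA cultures, and any of the 4 Ro arrays for Creld2 in Ro cultures (largest adjusted p over all alternatives 0.23, 0.14 and 0.13). Ro cultures also had the lowest Sdf2l1 change (-1.83 ± 0.34) and the lowest Psat1 change (-2.06 ± 0.41) of the 3 conditions.

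Slc7a11 rose with LPS in each condition, with different sizes, but the call with Ro was lost with the mean of all kept probe sets. Its signals went from 226 and 108 to 1925 and 1849 without retinoid (3.98 ± 0.42), from 116 and 39.2 to 1889 and 649 with RA (4.13 ± 0.42) and from 184 and 159 to 397 and 522 with Ro (1.68 ± 0.42; adjusted p 0.034). The rise with Ro was lost without either Ro array or without the BL6 Ro+LPS array (largest adjusted p over all alternatives 0.26).

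No member passed a test of the difference in LPS response between these conditions. The interaction of LPS with RA gave 0 members (0% of all tested genes) and that with Ro gave 0 members (0.619%) by limma, with 5 and 8 members at an unadjusted p under 0.05; leaving out 1 array gave at most 1 member, for Ro without either RA+LPS array. Of all 12442 tested genes, 708 (RA) and 1920 (Ro) had an unadjusted limma p under 0.05 for these interactions. The Ro interaction was -2.26 ± 0.59 for Slc7a11 (adjusted p 0.14), 1.59 ± 0.84 for Chac1 (adjusted p 0.38), -1.73 ± 0.47 for Creld2 (adjusted p 0.15) and 1.41 ± 0.50 for Eif2ak3 (adjusted p 0.18). For RA, Herpud1 had 1.69 ± 0.54 (adjusted p 0.83). The strain by LPS interaction gave 0 members by limma (0.0241% of all tested genes), with 3 members at an unadjusted p under 0.05, of 1402 genes in all.

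**Figure D4:**
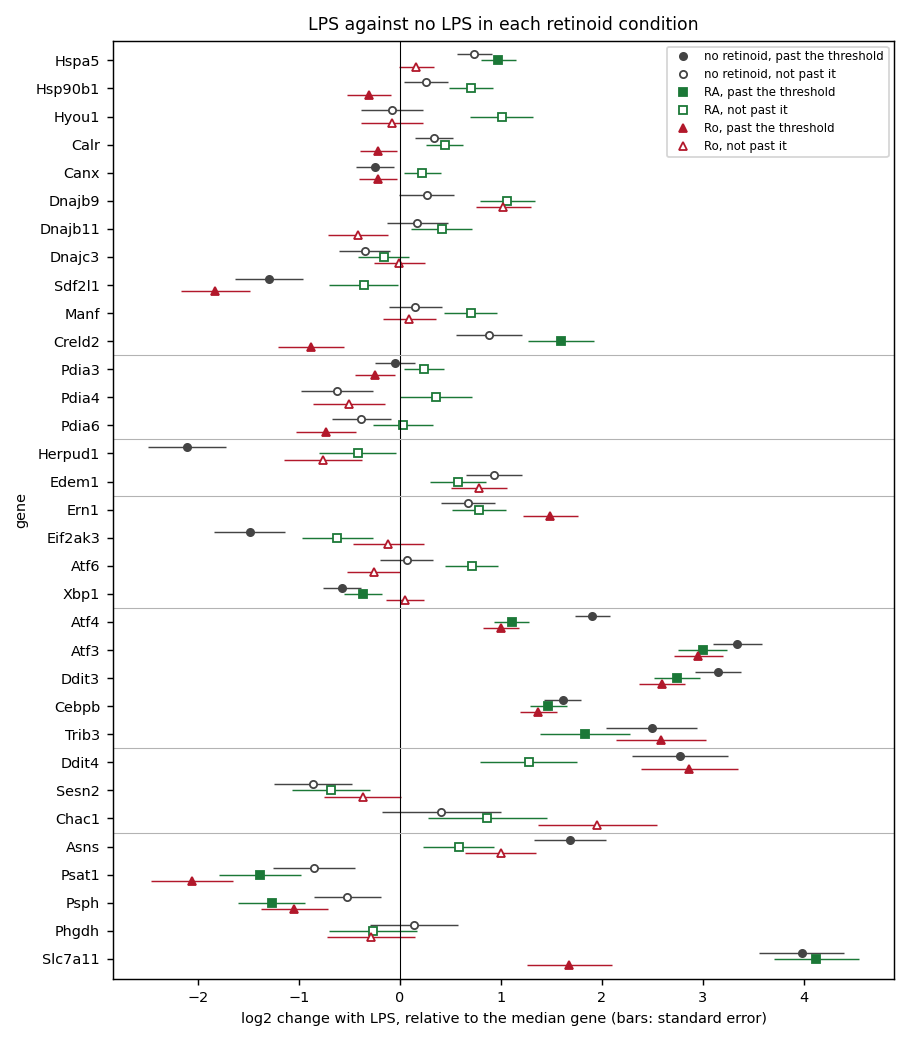
Log2 change with LPS relative to the median gene (x axis; bars are model standard errors, 2 arrays against 2) for each of the 33 genes (y axis, grouped by role) without retinoid (circles), with RA (squares) and with Ro (triangles); filled symbols passed the test. All 5 ATF4 arm factors have 3 filled symbols to the right of 0, and Creld2 is filled on opposite sides of 0 for RA and Ro.

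For RA against no retinoid, no member passed the test in any comparison: 0 of 33 averaged over LPS (0% of all tested genes), 0 without LPS (0.113%) and 0 with LPS (0%) by limma, with both scalings required. At an unadjusted p under 0.05 there were 12, 6 and 19 members, of 1025, 913 and 1147 genes in all. The median change of the 33 was 0.43 in the averaged comparison, where the median gene is at 0, and 27 of 33 lay above it. The largest averaged change was that of Asns, whose signals were 201 and 195 without retinoid and 671 and 619 with RA in the absence of LPS, and 395 and 538 against 668 and 802 in its presence. Each RA array was above each array without retinoid, which held for 6.06% of the members and 0.386% of all tested genes, with an averaged change of 1.12 ± 0.27 (adjusted p 0.24).

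With LPS present, both RA arrays lay above both arrays without retinoid for 16 of 33 members (48.5%, against 17.1% of all tested genes). The isomerase gene Pdia4 was at 508 and 70.9 without and 915 and 489 with RA, and Manf, which encodes a secreted ER protein, at 1903 and 1382 without and 2712 and 4607 with it. Their changes of 1.60 ± 0.36 and 1.04 ± 0.26 did not pass the test (adjusted p 0.28 and 0.33). Leaving out the BALB/c RA+LPS array changed how many members passed. The BL6 array alone then stands for RA+LPS and is assumed to vary like the others, and the share of all tested genes that passed is not given here. The BL6 RA+LPS culture, a single array, had the highest signal of all 12 arrays for 6 members, Hspa5, Hsp90b1, Hyou1, Manf, Creld2 and Ddit3. The share of all tested genes that were highest on that array was not counted, so this is not a trait shown for these members.

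With Ro against no retinoid, Cebpb fell and Sesn2 and Xbp1 rose. Averaged over LPS (4 arrays against 4), 2 members rose (6.06%, against 7.45% of all tested genes) and 1 fell (3.03%, against 4.25%), shares close to the background. Cebpb had signals of 4109, 3062, 9148 and 6222 without retinoid (BALB/c and BL6 without LPS, then with LPS) and of 1188, 934, 2069 and 2262 with Ro. Every Ro array lay below every array without retinoid, as for 2.13% of all tested genes, and Cebpb fell by 1.99 ± 0.13 (3.97-fold; adjusted p 3.18e-05). The fall was 1.90 ± 0.18 without LPS, where Cebpb was the only member called (0% of members higher and 3.03% lower, against 1.21% and 1.14% of all genes), and 2.08 ± 0.18 with LPS.

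Sesn2 had signals of 626, 224, 171 and 105 without retinoid and 1109, 618, 673 and 369 with Ro, in the same order. Within each strain and LPS state Ro was higher, and Sesn2 rose by 1.22 ± 0.27 (2.32-fold; adjusted p 0.0080). Xbp1 also rose, by 0.44 ± 0.17 (adjusted p 0.038), a call that 15 of 25 alternatives ended, 8 of them by leaving out 1 array; without the BL6 array with LPS alone, for example, it did not pass (largest adjusted p over all alternatives 0.37).

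With LPS present, Ro against no retinoid gave 6 members higher (18.2%, against 10.8%) and 2 lower (6.06%, against 5.51%). Herpud1 had 332 and 222 without retinoid and 1747 and 634 with Ro, and rose by 1.61 ± 0.38 (adjusted p 0.027). Eif2ak3 went from 154 and 50.5 to 406 and 222 (1.29 ± 0.35; adjusted p 0.033), and Xbp1 from 5454 and 2570.0 to 9138 and 6757 (0.78 ± 0.19; adjusted p 0.0039). For these 3 genes both Ro+LPS arrays lay above both arrays with LPS alone, as for 41.3% of all tested genes. Sesn2 rose by 1.49 ± 0.38 (adjusted p 0.018) and Dnajb9, an ER DnaJ co-chaperone induced by XBP1, by 0.74 ± 0.27 (adjusted p 0.042).

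Chac1 and Slc7a11, both linked to glutathione and both with CARE letters in their windows, moved in opposite directions in that comparison. Chac1 was 65.3 and 11.6 with LPS alone and 632 and 102 with Ro+LPS, and rose by 2.26 ± 0.59 (adjusted p 0.033); the first group was at background, and the BALB/c Ro+LPS array was the high one. Slc7a11 was 1925 and 1849 with LPS alone and 397 and 522 with Ro+LPS, and fell by 2.30 ± 0.42 (4.92-fold; adjusted p 0.0085). A dimmer probe set of Slc7a11 read 100 and 156 with LPS alone and 36.7 and 253 with Ro+LPS, and so was higher with Ro in BL6. Among the 8 calls of this comparison, that of Slc7a11 was lost with the mean of all kept probe sets. Of these 8 calls 2 remained, 1 higher and 1 lower, without the BL6 array with LPS alone. Without the BALB/c Ro+LPS array 3 members were called, 2 of them among the 8, and without strain as a block 2 were called, both lower. Averaged over LPS, Ro also lowered 6 of 11 macrophage and 2 of 12 granulocyte markers and raised 3 of 12 dendritic cell markers (against 4.25% of all tested genes lower and 7.45% higher), and the part of these shifts in the changes above was not tested.

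**Figure D5:**
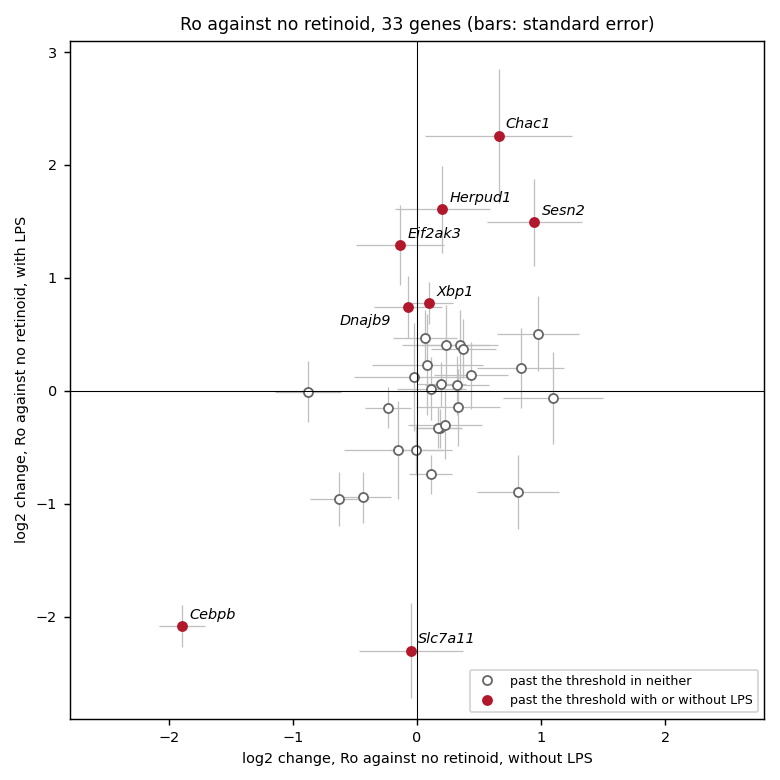
Log2 change with Ro against no retinoid, relative to the median gene, without LPS (x axis) and with LPS (y axis) for the 33 genes; bars are model standard errors and filled points passed the test in at least 1 of the comparisons. Cebpb is low in both, Slc7a11 lies near 0 on the x axis and low on the y axis, and Chac1, Herpud1, Sesn2, Eif2ak3, Xbp1 and Dnajb9 are filled above 0 on the y axis.

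RA was also set directly against Ro, at the different doses used (10 and 100 nmol), averaged over LPS. Of the 33 members, 2 were higher with RA (6.06%, against 5.32% of all tested genes) and 1 was lower (3.03%, against 8.87%). Cebpb was 3869.9, 3157, 8485 and 6324 with RA against 1188, 934, 2069 and 2262 with Ro, a difference of 1.94 ± 0.13 (3.84-fold; adjusted p 2.07e-05). Ddit3 was 554, 778, 2616 and 4383 with RA against 263, 428, 1659.5 and 1652 with Ro, a difference of 1.19 ± 0.16 (2.28-fold; adjusted p 0.0018). In both genes RA was higher in each strain and LPS state. Sesn2 was lower with RA, with a difference of -1.17 ± 0.27 (adjusted p 0.0059): 554, 223, 132 and 187 with RA against 1109, 618, 673 and 369 with Ro. Comparisons of RA and of Ro with no retinoid share the same arrays without retinoid: for Ddit3 they gave 0.49 ± 0.16 (adjusted p 0.42) and -0.69 ± 0.16 (adjusted p 0.065), and for Cebpb -0.05 ± 0.13 (adjusted p 0.97) and -1.99 ± 0.13. In the same comparison of RA with Ro, 8 of 11 macrophage and 2 of 12 granulocyte markers were higher with RA and 5 of 12 dendritic cell markers were lower, and their part in the differences of Cebpb, Ddit3 and Sesn2 was not tested.

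Between BALB/c and BL6, 6 members were higher in BALB/c (18.2%, against 7.17% of all tested genes) and 1 was lower (3.03%, against 3.84%). Of these 7, 4 were chaperone or isomerase genes, which make up 14 of the 33 members. The 3 disulfide isomerases were all higher in BALB/c. Pdia4 had a lowest, median and highest signal of 508, 929.6 and 1610.3 in BALB/c and 70.9, 255 and 489 in BL6, with every BALB/c array above every BL6 array, and differed by 1.80 ± 0.24 (3.49-fold; adjusted p 0.00041). Pdia3 was 3792, 5026 and 6602 against 1442, 2441 and 3187 (0.95 ± 0.12; adjusted p 0.00028), also without overlap; such separation held for 6.06% of the members and 1.8% of all genes. Pdia6 (0.55 ± 0.19), Sdf2l1 (0.85 ± 0.25), Xbp1 (0.49 ± 0.14) and Edem1 (0.45 ± 0.16) were higher in BALB/c, and Ddit3 was lower (-0.60 ± 0.13; adjusted p 0.039).

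These strain differences depended on single arrays. Leaving out 1 array gave 3 to 11 called members: 3 without the BL6 array with neither agent, 4 without the BALB/c array with neither agent, with RA or with Ro or the BL6 array with RA or with LPS alone, and 11 without the BL6 RA+LPS array. Sdf2l1, Pdia6 and Ddit3 each lost the call without most of the single arrays (10, 13 and 11 of 22 alternatives in all). Other probe sets of the genes often differed: 22 of 36 had the sign of the one reported, and of the 9 belonging to called members 1 passed in the same direction. With the mean of all kept probe sets, Pdia3 and Xbp1 were no longer called. Of the 31 other genes of ER import, folding and glycan trimming, 6 were higher and 2 lower in BALB/c, among them the isomerase gene P4hb (0.97 ± 0.15) and the glycosyltransferase subunit gene Rpn2 (0.74 ± 0.16), which were higher. BALB/c is replicate 1 and BL6 replicate 2 in every condition, so strain cannot be told apart from anything else that follows the replicate number.

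Other genes of the same pathways, taken from lists of related genes that hold none of the 33, are given for context. With LPS, 3 of the 31 tested genes of ER import, folding and glycan trimming rose and 16 fell, against 11% and 28.9% of all tested genes; the risers included the oxidoreductase Ero1a (2.86 ± 0.38; adjusted p 0.00016), a known CHOP target, and the co-chaperone Dnajc1 (2.69 ± 0.18), and the glucosidase gene Mogs fell (-1.72 ± 0.31; adjusted p 0.00058). Of 23 degradation genes 2 rose and 5 fell, and of 17 other sensors and regulators 2 rose and 4 fell, shares near or below that background. Among 12 genes of eIF2alpha signalling and ATF4 partners 3 rose and 2 fell, and those that rose were Nupr1 (2.94 ± 0.29), the eIF2alpha phosphatase subunit gene Ppp1r15a (2.59 ± 0.17; GADD34) and Jdp2 (2.38 ± 0.23).

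Of 20 tested amino acid transport and synthesis genes outside the 33, 5 rose with LPS and 5 fell, against 11% and 28.9% of all tested genes: Vegfa, a growth factor gene listed there as an ATF4 target, rose by 3.68 ± 0.39, whereas the glutamine transporter gene Slc1a5 fell by 2.68 ± 0.28 and the serine hydroxymethyltransferase gene Shmt2 by 1.38 ± 0.19. Of 12 aminoacyl-tRNA synthetase genes 0 rose and 3 fell, shares near or below the background (Iars, Tars and Lars, by 1.51 ± 0.19, 0.88 ± 0.21 and 0.87 ± 0.16). NRF2 antioxidant genes, which include partners of Slc7a11 in glutathione metabolism, gave 5 rises and 0 falls of 9, led by Hmox1 (3.06 ± 0.18), Srxn1 (1.90 ± 0.19) and Sqstm1 (1.81 ± 0.11), and 2 of 10 apoptosis genes of ER stress rose and 1 fell. With Ro, 8 of the 20 amino acid transport and synthesis genes rose (against 7.45% of all tested genes) and 1 fell; the large neutral amino acid transporter gene Slc7a5 rose by 1.94 ± 0.35, the cationic transporter gene Slc7a1 by 1.46 ± 0.34, and Vegfa fell by 2.23 ± 0.48. With RA none of the genes in these lists passed the averaged test.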

How the data were processed

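Total RNA of 12 dendritic cell cultures (1 per condition and strain) was measured on Affymetrix arrays. Linear probe set intensities were deposited, and MAS5 is named for them per the submitters' processing notes; its version and target are not given in the sources used here, and detection calls were not used. No scanner files or scan dates were used. Array medians ran from 21.3 to 41.7 and trimmed means (2% off each end) from 157 to 262, so scaling was tested in more than 1 way. The number of arrays, 2 per condition, limits the precision.

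Of 45101 probe sets, 64 were controls, 34945 had 1 annotated gene, 932 had more than 1 and 9160 had none; 34741 gene identifiers matched the reference list and 0 symbols needed an update. Intensities were analysed as log2(signal + 16). A probe set was kept if it exceeded its array's median on at least 2 arrays, and each gene was represented by its kept probe set of highest mean. The fits used limma 3.58.1 (lmFit, eBayes with intensity trend; R 4.3.3) and all 12 arrays: retinoid, LPS and strain for averaged comparisons, with a strain by LPS term added for that interaction, and the 6 conditions plus strain for the others. A gene was called under the Benjamini-Hochberg threshold of 0.05 over 12442 genes at the deposited scaling and after quantile normalization alike.

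Strain is the block, since replicate 1 is BALB/c and replicate 2 is BL6 in every condition. Strain differences of any pair of conditions correlated across genes with r from 0.304 to 0.699 across 15 comparisons of pairs. Strain and any batch that goes with the replicate number cannot be told apart. The fits were tested on simulated data before use. Promoter windows are from RefSeq (GRCm38.p6), and motif searches, tables and figures used matplotlib 3.10.9, numpy 2.4.6 and pandas 2.3.3 under Python 3.11.15.

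The members, the 8 pathway lists and the 7 marker lists were chosen with earlier results of these data known. All members could be named; from each pathway list at most the 3 called genes of largest change per averaged comparison were. Alternatives were other scalings, added constants, filters, probe set means, models without the block or the trend, single strains and leaving out each array.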

Additional observations from a re-analysis of the deposited data

How the results depend on the processing

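Over 25 alternatives no called member was called in the opposite direction: of 1927 re-tests of called members, 1672 kept and 255 lost the call. Relative to the median gene, the change of Pdia3, called lower with LPS, ran from -0.35 to 0.04 averaged over retinoids and from -0.45 to 0.08 without retinoid. With LPS, averaged over retinoids, 14 to 21 members were called under each setting that used all arrays, and 8 in BL6 alone (6 arrays), where Ddit4, Psat1, Psph, Sdf2l1 and Xbp1 were among those lost. Strain is the replicate block: without it 14 members were called for LPS averaged over retinoids, 5 in RA cultures, 7 in Ro cultures, and 2 for Ro with LPS. Without the intensity trend, LPS in Ro cultures gave 11. Ro against no retinoid, averaged, gave 6 at the deposited scaling alone, 5 with the trimmed mean, 6 in the other model and 1 in BALB/c or BL6 alone. RA against Ro gave 5 by quantile normalization or the trimmed mean alone and 1 in BL6 alone, and the strain comparison 11 at the deposited scaling alone and in the other model. With only the arrays of the comparison, 4 members were called for RA and 5 for Ro without LPS. Leaving out 1 array at a time gave 16 to 22 members for LPS averaged, 11 to 17 without retinoid, 4 to 11 in RA and 7 to 19 in Ro cultures. It gave 0 for RA averaged, 0 to 1 without LPS and 0 to 8 with LPS. For Ro it gave 2 to 4 averaged, 1 to 4 without and 2 to 8 with LPS, for RA against Ro 3 to 4, and for strain 3 to 11. The interactions gave 0 for RA and for strain and 0 to 1 for Ro. Leaving out an array or a strain leaves fewer arrays in the fit, and 1 array alone then stands for a condition. The shares of all tested genes called in these fits are not given here, and otherwise the cause was not tested. Signals under 41.7, as for Chac1 and Trib3 on some arrays, are near background, and their changes depend on the added 16. The genes of the pathway lists were tested in the reported fits only.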
